A study of Mus musculus with 6 samples.

Results

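A set of 7 genes of endothelial inflammation and lipid signalling, Lcn2, Lrg1, Ackr1, Ch25h, Ptgs2, Ptges and Pglyrp1, was followed across the cells of mouse brain microvessels. They are 7 of the 32286 features counted and were matched by symbol. They were chosen by their measured levels across zones and groups in an earlier look at these libraries, so their distribution over vessel zones is given as a description and their genotype differences are not independent evidence. The knockout mice were Cldn5 iECKO animals, which carried floxed Cldn5 alleles, a YFP reporter at R26 on both alleles and Cdh5-creERT2, a tamoxifen-inducible recombinase driven by an endothelial cadherin promoter. The control mice carried the same floxed and reporter alleles on the C57Bl6 background without the recombinase. Both groups received tamoxifen (20 mg/ml, 100 µl by gavage on 3 days) at about 3 months of age, and there were 3 libraries per group. Vessels were captured with beads against PECAM1, so cells that lack this protein were recovered only in part, and each cell's RNA was counted by droplet 3′ sequencing with unique molecular identifiers (UMIs).

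Venules are the segment of the brain vasculature where leukocytes attach and leave the blood, and their endothelium answers circulating cytokines with secreted proteins and lipids. Lcn2 encodes lipocalin-2, an iron-siderophore-binding protein of the acute phase, and Lrg1 encodes a secreted leucine-rich glycoprotein that modifies TGF-beta signalling. Ackr1 is the atypical chemokine receptor of venules, which binds inflammatory chemokines without G-protein signalling. Ch25h makes 25-hydroxycholesterol, an oxysterol that restrains sterol synthesis. Ptgs2 is the inducible cyclooxygenase, and Ptges turns its product into prostaglandin E2, the prostaglandin through which brain endothelium takes part in fever. Pglyrp1 is a secreted protein that recognises bacterial peptidoglycan.

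On GRCm38 the genes lie on 5 chromosomes. Lcn2 (ENSMUSG00000026822) spans chr2:32384633-32388252 and Ptges (ENSMUSG00000050737) chr2:30889471-30929863, both on the minus strand. Ackr1 (ENSMUSG00000037872) spans chr1:173331886-173333750 on the minus strand and Ptgs2 (ENSMUSG00000032487) chr1:150100031-150108227 on the plus strand. Lrg1 (ENSMUSG00000037095) lies at chr17:56119678-56122001, and Ch25h (ENSMUSG00000050370), a gene of 1 exon, at chr19:34473778-34475164, both on the minus strand. Pglyrp1 (ENSMUSG00000030413) lies at chr7:18871331-18890459 on the plus strand.

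Promoter windows of all 7 genes were found in the RefSeq table of build GRCm38.p6. The 250 bases before each RefSeq start were searched on both strands, for TATAAA on the gene's strand only. The motifs were the NF-kappaB consensus, the C/EBP motif TTGCNNAA, the STAT motif TTCNNNGAA, the AP-1 motif TGANTCA, the core TGACG of a cyclic AMP response element, TATAAA and the E-box CACGTG. The windows of 4 genes held a match, and they are shown because the genes they belong to differ in where they were expressed. Capitals mark the matches, and each sequence is written 5′ to 3′ along its gene's strand.
Lcn2: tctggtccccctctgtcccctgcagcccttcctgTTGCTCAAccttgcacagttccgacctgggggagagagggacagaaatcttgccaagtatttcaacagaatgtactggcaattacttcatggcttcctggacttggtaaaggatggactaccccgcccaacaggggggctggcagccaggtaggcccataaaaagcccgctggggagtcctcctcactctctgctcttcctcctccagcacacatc
Ch25h: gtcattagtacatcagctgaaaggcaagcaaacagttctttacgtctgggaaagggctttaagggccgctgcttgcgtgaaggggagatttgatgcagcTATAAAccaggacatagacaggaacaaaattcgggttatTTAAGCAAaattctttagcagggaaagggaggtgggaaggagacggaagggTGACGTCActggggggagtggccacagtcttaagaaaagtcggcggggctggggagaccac
Ptgs2: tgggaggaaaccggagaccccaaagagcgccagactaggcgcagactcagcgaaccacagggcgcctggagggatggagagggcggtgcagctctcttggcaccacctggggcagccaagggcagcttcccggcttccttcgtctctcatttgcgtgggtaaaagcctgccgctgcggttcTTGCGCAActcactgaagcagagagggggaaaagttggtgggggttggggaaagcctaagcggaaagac
Pglyrp1: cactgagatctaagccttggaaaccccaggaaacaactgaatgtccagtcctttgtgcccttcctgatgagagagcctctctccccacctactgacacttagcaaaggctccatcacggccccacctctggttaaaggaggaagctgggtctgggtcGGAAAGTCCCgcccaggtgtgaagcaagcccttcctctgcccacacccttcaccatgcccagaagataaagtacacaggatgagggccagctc
The windows lie at chr2:32387740-32387989 on the minus strand for Lcn2, chr19:34475149-34475398 on the minus strand for Ch25h, chr1:150099781-150100030 on the plus strand for Ptgs2 and chr7:18884440-18884689 on the plus strand for Pglyrp1. RefSeq starts can differ from the ends of the gene spans given above. The windows of Lcn2 and Pglyrp1 lie wholly inside those spans, and that of Ch25h in part. C/EBP letters occurred in Lcn2 (216 bases before the start), Ch25h (112 bases before it) and Ptgs2 (69 bases before it), against 9.56% of 32851 promoters of that length. The Ptgs2 match reads the same on both strands. Ch25h also held TATAAA, 151 bases before the start, and the core TGACG on both strands, overlapping in TGACGTCA. TATAAA stood in 7.59% of all promoters and TGACG in 17.8%. The 1 NF-kappaB match was in Pglyrp1, 93 bases before the start, and 3.90% of all promoters held one. Matches to STAT, AP-1 or E-box letters, which 7.02%, 6.75% and 6.02% of promoters held, were not found in these windows, and the windows of Lrg1, Ackr1 and Ptges held none of the 7 motifs. A match is a string of letters and not a measured binding site.

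Depth ran between 15727366 and 49350802 UMIs in iECKO and between 29721428 and 31638780 UMIs in control libraries, over 2714 to 7420 and 4049 to 6684 barcodes. After filtering, 23989 cells were kept, of which 22058 were endothelial: 1301 venous, 12101 capillary, 4371 arterial and 728 fenestrated, the rest being an unnamed cluster led by Apln and one led by mural genes. Zones were named by fixed markers, with Cldn5 and the 7 genes left out of the clustering. The venous cluster was led by Ifitm1, Adgrg6 and Vwf and had 9 venous markers detected. Any 2 libraries shared 0 to 12 barcodes. iECKO 1 stood apart: the Apln-led cluster made up 56.0% of its endothelial cells, against 20.8% in iECKO 2, 5.75% in iECKO 3 and 0.537% to 0.786% in the control libraries, and 8.24% of its endothelial barcodes carried markers of other cell classes and were taken out, where the remaining libraries lost 0.492% to 1.40%. By Xist, both replicates numbered 2 were female. Cldn5 stood at 2675, 2191 and 3114 CPM, UMIs scaled to a total of 1000000 per library and cell set, in endothelial cells of iECKO 1, 2 and 3, against 4552, 4004 and 5384 CPM in control 1, 2 and 3, so every iECKO library was below every control library and none had lost the transcript. Cldn5 itself was not called in edgeR's unpaired test over all endothelial cells, where 0 of 13264 genes were. With the replicate number as a block it was called there. A missing call in the unpaired test therefore does not show a lack of change. The labels do not say that the libraries came from separate animals, so the p-values below measure the spread between these libraries.

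Lcn2, Lrg1, Ackr1, Ch25h and Ptgs2 were genes of the vein in both groups. In venous cells Lcn2 averaged 708 ± 574 CPM in iECKO and 141 ± 18.1 CPM in control libraries (SD, n = 3 each), and in capillary cells 24.2 ± 14.7 CPM and 6.64 ± 1.15 CPM. Within a library the venous level of Lcn2 was 17.7 to 33.9 times the capillary level. For Lrg1 that ratio was 96.6 to 210.4. Venous cells were 5.18% of endothelial cells in iECKO 1, 10.8% in iECKO 2 and 5.59% in iECKO 3, against 3.70%, 6.11% and 7.11% in control 1, 2 and 3. A separate cluster led by Prss34 and Selp held 337 barcodes in iECKO 1 and at most 8 in any other library; 329 of the 337 were removed as mixed, and Acta2, a smooth muscle gene, stood at 1806 CPM in it. In iECKO 1 it carried Lcn2 at 490 CPM, Lrg1 at 792 CPM and Ackr1 at 171 CPM. Without it, the venous cells supplied 73.8% to 84.4% of the endothelial Lcn2 UMIs in iECKO and 76.5% to 87.7% in control libraries. The venous portion of Lrg1 UMIs was 93.7% to 95.3% in iECKO and 93.0% to 95.8% in control libraries.

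The vein genes differed in what came second among the 11 cell sets measured per library. For Lcn2 it was the capillary cluster led by F5, Ndnf and Flrt2, in which 9 venous markers were also detected: 41.1 ± 27.7 CPM in iECKO and 11.5 ± 2.92 CPM in control libraries. Lrg1 was next highest in fenestrated cells, at 59.3 ± 54.8 CPM in iECKO and 13.5 ± 3.92 CPM in control libraries. Ackr1 was also next in fenestrated cells, at 4.94 to 12.9 CPM in iECKO and 5.85 to 6.65 CPM in control libraries. Ch25h and Ptgs2 were next in the arterial cluster led by Fbln5. There Ch25h averaged 72.2 ± 66.2 CPM in iECKO and 16.2 ± 11.4 CPM in control libraries, and Ptgs2 63.1 ± 16.2 CPM and 37.2 ± 14.5 CPM. For all 5 genes every venous library was above every library of the second cell set of its own group, while most neighbours further down the order overlapped.

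Ptges and Pglyrp1 did not have their highest level in the vein. Venous Ptges was nevertheless above capillary and arterial Ptges in all 6 libraries. Within a library its venous level was 1.05 to 1.72 times the capillary and 1.66 to 4.10 times the arterial level. Ptges, the enzyme downstream of Ptgs2, had its highest mean among the 11 cell sets measured per library in the Apln-led cells, at 59.5 ± 6.89 CPM in iECKO and 43.9 ± 10.7 CPM in control libraries, where it overlapped pericytes. The Apln-led set held only 35, 26 and 20 cells in control 1, 2 and 3, so its control levels rest on few UMIs. Ptges stood at 35.8 ± 5.61 CPM in iECKO and 36.1 ± 20.1 CPM in control pericytes, and at 33.4 ± 4.98 CPM in iECKO and 22.2 ± 2.21 CPM in control venous cells. Pooled fibroblasts, too few to give by library, were higher: 19 Ptges UMIs in 14 cells of 4 libraries gave 242 CPM (exact Poisson 95% interval 146 to 378, counting error only), against 57.2 CPM in pooled Apln-led cells. Pglyrp1 marked the endothelium of nearly all zones. It was highest in the Apln-led cells, at 2579 ± 612 CPM in iECKO and 1353 ± 241 CPM in control libraries. In capillary cells it averaged 1525 ± 379 CPM in iECKO and 964 ± 330 CPM in control libraries, above the venous level of its own library in all 6 libraries. Fenestrated cells, which lack a barrier, had 38.8 ± 14.2 CPM in iECKO and 19.9 ± 1.38 CPM in control libraries.

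Microglia, pericytes and smooth muscle cells carried little of the vein genes. Summed over the 6 libraries, microglia had 2.35 CPM of Lcn2, 1.57 CPM of Lrg1, 7.06 CPM of Ptgs2 and no Ackr1 UMI. Pericytes had no Lcn2 UMI, and smooth muscle cells had 1.94 CPM. Lcn2, Lrg1, Pglyrp1 and Ptgs2 are also genes of neutrophils and monocytes. The pooled mixed leukocytes had 530 CPM of Pglyrp1 and 57.3 CPM of Ptgs2, but 4.59 CPM of Lcn2 and 1.15 CPM of Lrg1. In venous cells the 9 neutrophil markers summed to 0 to 0.607 CPM in iECKO and 0.273 to 0.394 CPM in control libraries, with 8 or 9 of the 9 at 0 in every library. The 5 monocyte markers summed to 0 to 1.24 CPM in iECKO and 0 to 0.879 CPM in control libraries.

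**Figure D1:**
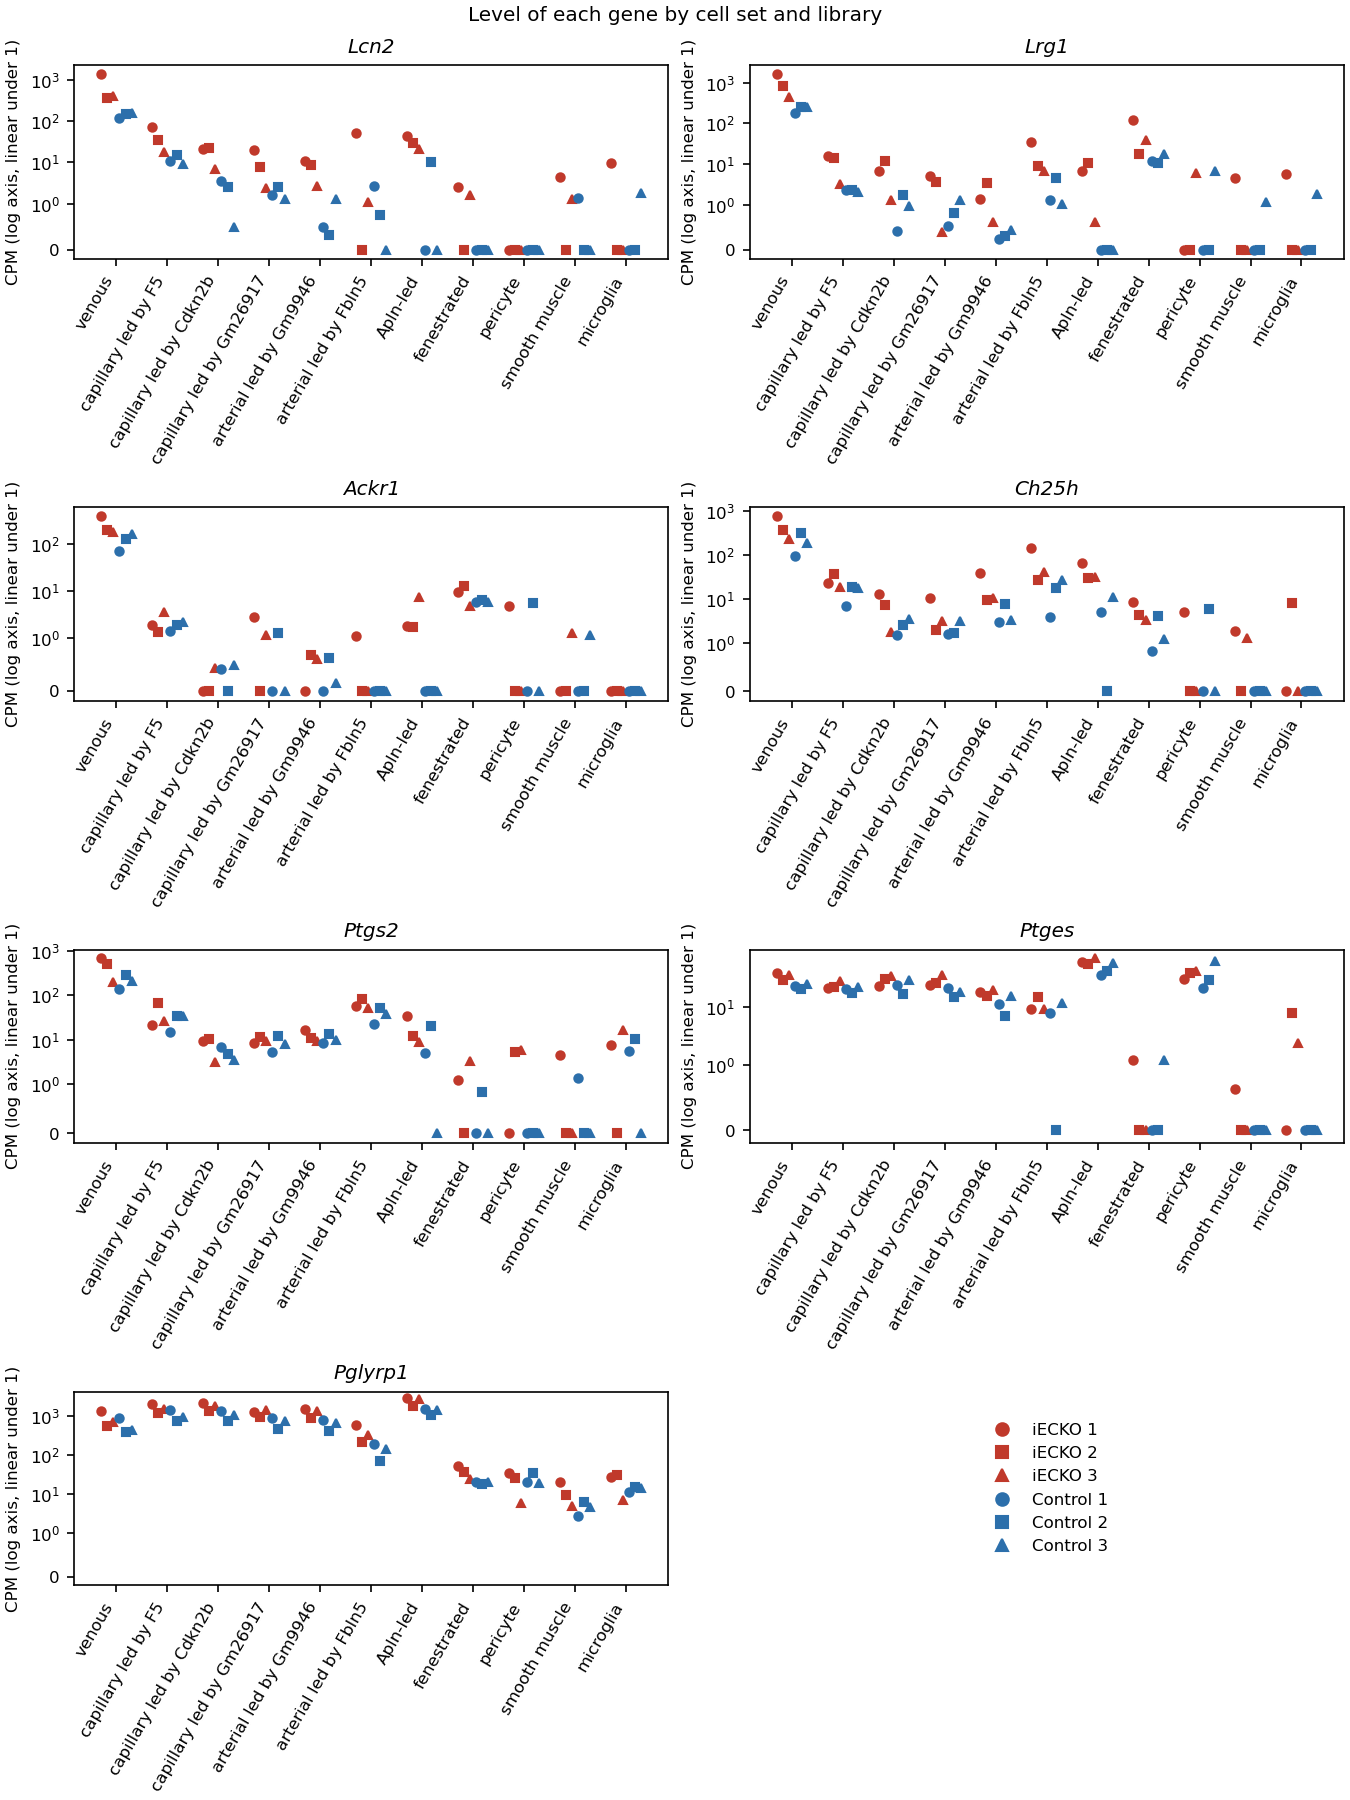
CPM of the 7 genes (vertical, log axis that is linear under 1) in 11 cell sets, with 1 point per library, iECKO in red and control in blue, and the shape giving the replicate number. Lcn2, Lrg1, Ackr1, Ch25h and Ptgs2 peak in venous cells, whereas Ptges and Pglyrp1 are spread over the barrier endothelium and have their highest means among these sets in the Apln-led cells, where Ptges in control libraries overlaps pericytes.

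The next question was whether loss of Cldn5 moved these genes within the vein. In venous cells Lcn2 stood at 1371, 360 and 393 CPM in iECKO 1, 2 and 3, against 120, 147 and 155 CPM in control 1, 2 and 3. All iECKO libraries were above all control libraries, and iECKO 1 was far above iECKO 2 and 3. How many of all genes have groups apart in this way was not counted, so separation is given here and below as a description. Lrg1 stood at 1620, 839 and 448 CPM in iECKO 1, 2 and 3, against 183, 246 and 257 CPM in control 1, 2 and 3, again without overlap. Ackr1 stood at 398, 200.5 and 182 CPM in iECKO 1, 2 and 3, against 71.2, 127 and 164 CPM in control 1, 2 and 3. The groups of Ackr1 did not overlap either, but iECKO 3 was close to control 3.

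Ch25h stood at 774, 381.5 and 233 CPM in iECKO 1, 2 and 3, against 96.8, 314 and 187 CPM in control 1, 2 and 3. The groups overlapped, since control 2 was above iECKO 3, but each iECKO library was above the control library of its own number. Ptgs2 stood at 677, 512 and 198 CPM in iECKO 1, 2 and 3, against 138, 279 and 205 CPM in control 1, 2 and 3. Here iECKO 3 lay among the control libraries. Ptges stood at 37.7, 27.9 and 34.4 CPM in iECKO 1, 2 and 3, against 22.4, 19.9 and 24.3 CPM in control 1, 2 and 3, with no overlap. Pglyrp1 stood at 1415, 580 and 723 CPM in iECKO 1, 2 and 3, against 887, 403 and 452 CPM in control 1, 2 and 3. Its groups overlapped, but each iECKO library was above the control library of its own number.

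**Figure D2:**
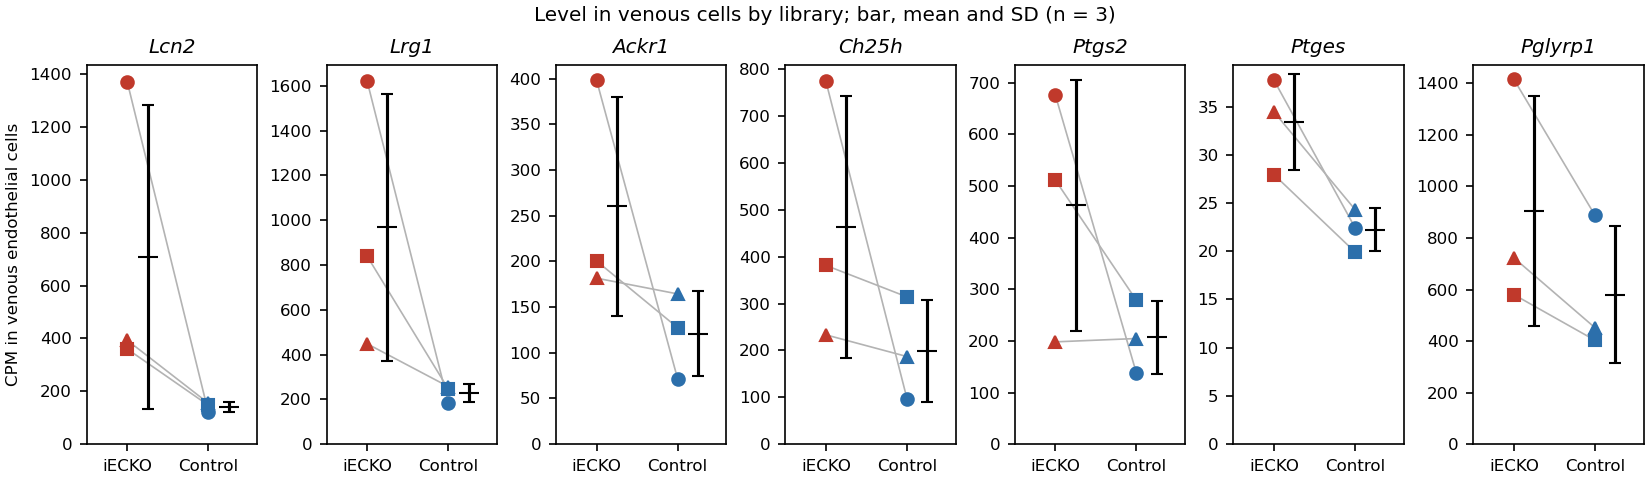
CPM in venous endothelial cells (vertical, from 0) for each of the 7 genes, iECKO in red and control in blue; circles, squares and triangles are replicates 1, 2 and 3, lines join libraries of the same number, and bars are mean and SD of 3 libraries. The iECKO libraries spread widely for Lcn2, Lrg1, Ch25h and Ptgs2, with iECKO 1 highest, while Pglyrp1 differs between pairs by a similar factor.

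In the unpaired fit of edgeR's quasi-likelihood test, iECKO over control, Lcn2 differed by 2.35 ± 0.57 on the log2 scale (± SE, adjusted p = 0.913) and Lrg1 by 2.11 ± 0.45 (adjusted p = 0.574). The differences of Ptgs2, Ackr1 and Ch25h were 1.18 ± 0.50, 1.13 ± 0.37 and 1.23 ± 0.62 log2, and those of Ptges and Pglyrp1 0.60 ± 0.18 and 0.62 ± 0.43 log2. None of the 7 passed an adjusted p under 0.05, and 0% of the 10393 genes tested in venous cells did; 508 genes had an unadjusted p under 0.05, and DESeq2 called 20 genes, none of them among the 7. The median log2 difference of the 7 was 1.18, against -0.00076 over all genes tested. Since the 7 were chosen by their levels across zones and groups in these libraries, this contrast is a description only. Without iECKO 1 the log2 difference was 1.37 for Lcn2, 1.48 for Lrg1, 0.63 for Ackr1, 0.76 for Ptgs2, 0.59 for Ch25h and 0.09 for Pglyrp1. Without iECKO 3 Lrg1 passed, at 2.48 log2 (adjusted p = 0.00773). With no filter on low counts Lrg1 and Ackr1 passed (adjusted p = 3.32e-10 and 0.000123). When the Selp-led barcodes were added to the venous cells, a choice made after seeing the data that gave iECKO 1 559 cells, the differences were 2.08 for Lcn2, 1.93 for Lrg1 and 0.94 log2 for Ackr1, with no call.

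Libraries of the same replicate number resembled each other, and with the number as a block Pglyrp1 passed in venous cells, at 0.61 ± 0.10 log2 (adjusted p = 0.0101). It was 1 of the 7, against 0.61% of 10659 genes called. Blocked values were 2.01 ± 0.71 for Lcn2 (adjusted p = 0.475) and 1.89 ± 0.66 for Lrg1 (adjusted p = 0.472). They were 1.05 ± 0.67 for Ackr1, 1.13 ± 0.87 for Ch25h, 1.03 ± 0.64 for Ptgs2 and 0.57 ± 0.15 for Ptges (adjusted p = 0.667, 0.721, 0.662 and 0.108). These calls depended on which pair was left out, in fits of 2 pairs chosen after seeing the data. Each of these fits had only 2 libraries per group from which to estimate the spread, and the block used up part of that information. Their p-values lean on the spread shared across genes and say little about the spread of a gene between libraries. Without replicate 1, 2 and 3 these fits called 36 of 10500, 216 of 10423 and 682 of 10476 genes, Cldn5 left out. All 3 pairs together gave 64 of 10659 on the same count. Lcn2 passed without replicate 1 (1.31 log2, adjusted p = 3.6e-08). Without replicate 2 Lcn2, Lrg1, Ackr1, Ch25h and Ptgs2 passed (2.40, 1.95, 1.27, 1.63 and 1.11 log2). Without replicate 3 Lrg1 and Ptgs2 passed (2.42 and 1.55 log2). Pglyrp1 passed in all 3 fits, at 0.57 to 0.66 log2, but these fits share libraries and are not separate support.

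With the block Pglyrp1 was called in the other zones too. It rose by 0.64 ± 0.09 log2 in capillary cells (adjusted p = 0.000395, against 1.68% of genes called) and by 0.86 ± 0.13 log2 in arterial cells (adjusted p = 0.00596, against 0.75% called). Its unpaired differences, 0.62 ± 0.26 and 0.83 ± 0.28 log2, did not pass (adjusted p = 1.00 in both). Pglyrp1 was the 1 gene of the 7 called in each of these zones. In capillary cells it stood at 1845, 1106 and 1622 CPM in iECKO 1, 2 and 3, against 1297, 638 and 957 CPM in control 1, 2 and 3.

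Lcn2 and Lrg1 had separate groups in capillary cells as well. Lcn2 stood at 40.4, 20.3 and 11.8 CPM in iECKO 1, 2 and 3, against 6.08, 7.97 and 5.88 CPM in control 1, 2 and 3, a difference of 1.79 ± 0.50 log2 (adjusted p = 1.00). Lrg1 stood at 9.59, 8.68 and 2.13 CPM in iECKO 1, 2 and 3, against 1.22, 1.58 and 1.72 CPM in control 1, 2 and 3, a difference of 2.10 ± 0.56 log2 (adjusted p = 0.952). The groups did not overlap for either gene, and neither passed edgeR's unpaired test, in which 0.0251% of 11969 genes were called, whereas DESeq2 called both (adjusted p = 0.00366 and 0.0281). In arterial cells Lcn2 stood at 32.5, 6.40 and 2.54 CPM in iECKO 1, 2 and 3, against 0.816, 0.441 and 1.17 CPM in control 1, 2 and 3, with no call among the 5 genes tested there, against 0.0181% of 11032 genes. The unpaired fits in microglia and pericytes called 0.0314% and 0.0635% of genes, and with the block 0.244% and 0.457%; none of the 7 was called there, most of them being too low to test. The level of these genes in capillary and arterial cells was a small part of the venous level, and RNA released from other cells was not tested as its source.

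Whether the vein responded more than the capillary bed was tested directly as the difference of both genotype effects. It was 0.47 log2 for Lcn2 (95% interval -0.47 to 1.42), 0.01 for Lrg1 (-1.16 to 1.19), 0.51 for Ackr1 (-0.32 to 1.34) and 0.74 for Ptgs2 (-0.34 to 1.82). For Ch25h it was 0.24 (-1.08 to 1.57), for Ptges 0.28 (-0.18 to 0.73) and for Pglyrp1 -0.02 (-0.73 to 0.69). None of the 7 passed, against 0% of 11938 genes, of which 805 had an unadjusted p under 0.05; limma-voom called 0 as well.

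**Figure D3:**
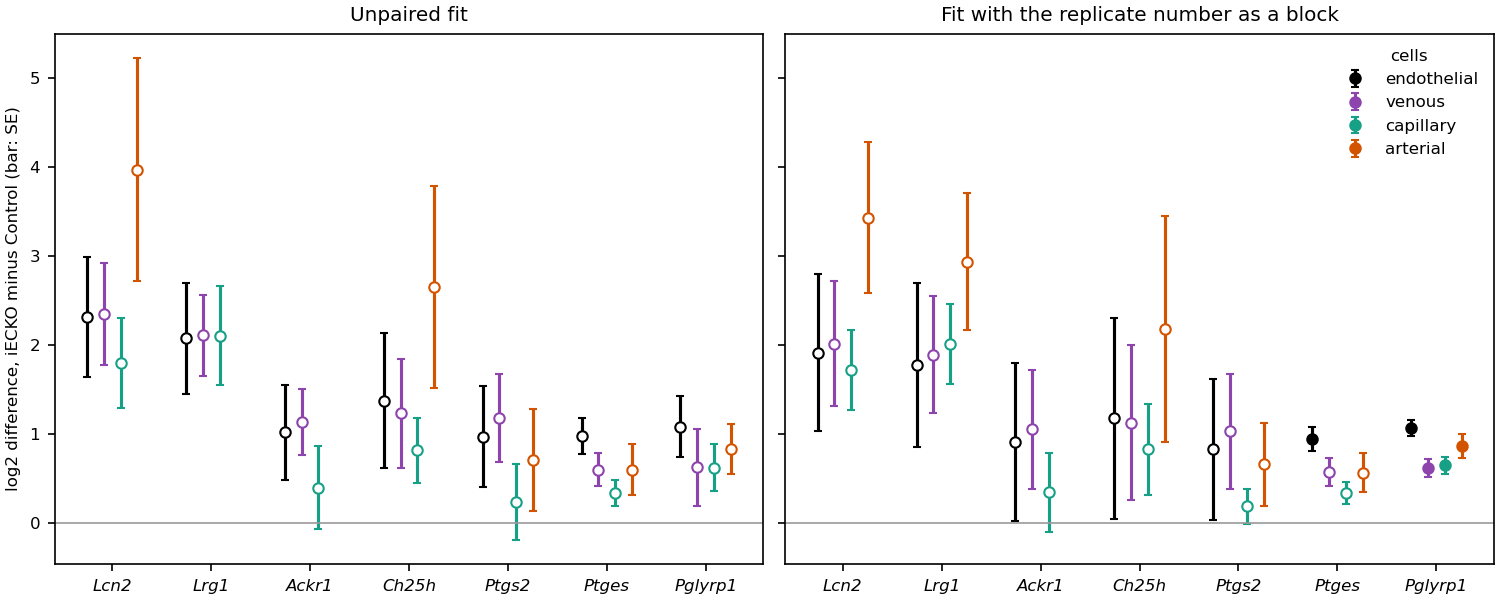
Log2 difference, iECKO minus control (vertical, bars are SE), of the 7 genes in all endothelial, venous, capillary and arterial cells, in the unpaired fit (left) and with the replicate number as a block (right). Filled points have an adjusted p under 0.05: none on the left; on the right Pglyrp1 in all 4 cell sets and Ptges in all endothelial cells.

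Over all endothelial cells the mix of clusters enters the value. Ptges stood at 41.6, 29.6 and 28.1 CPM in iECKO 1, 2 and 3, against 18.2, 13.9 and 19.4 CPM in control 1, 2 and 3. Its difference was 0.97 ± 0.21 log2 (adjusted p = 0.222), and with the block 0.94 ± 0.14 log2 (adjusted p = 0.0207). Pglyrp1 stood at 2299, 1132 and 1441 CPM in iECKO 1, 2 and 3, against 1071, 517 and 736 CPM in control 1, 2 and 3, a difference of 1.08 ± 0.34 log2 unpaired (adjusted p = 0.422) and 1.07 ± 0.09 log2 with the block (adjusted p = 0.00282). With the block 2 of the 7 were thus called, against 1.68% of 13606 genes. The Apln-led cells, where both genes were highest, supplied 74.4%, 42.9% and 15.8% of the Ptges UMIs in iECKO 1, 2 and 3, against 1.63%, 2.29% and 2.22% in control 1, 2 and 3. When all libraries were given the same subcluster composition, an alternative chosen after seeing the data, the unpaired difference was 0.45 log2 for Ptges and 0.77 log2 for Pglyrp1.

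The sums do not say how many venous cells took part. With each cell thinned to 2000 UMIs, Lcn2 was detected in 64.3%, 37.7% and 42.1% of venous cells in iECKO 1, 2 and 3, against 13.5%, 19.5% and 15.5% in control 1, 2 and 3. The exact 95% intervals of iECKO 2 (30.4% to 45.5%), the lowest iECKO library, and of control 2 (upper bound 24.7%), the highest control library, did not meet. These intervals cover the counting of cells within a library and not the spread between libraries. Lrg1 was detected in 69.6%, 60.5% and 35.2% in iECKO 1, 2 and 3, against 21.8%, 19.1% and 24.9% in control 1, 2 and 3. Its intervals in iECKO 3 (27.8% to 43.2%), the lowest iECKO library, and in control 3 (19.2% to 31.2%), the highest control library, overlapped. For these 2 genes all iECKO libraries were above all control libraries; for the other 5 they were not. Microglia, which should lack Lcn2, had it in 1.54%, 0% and 0% of cells in iECKO 1, 2 and 3 and in 0% of cells in each control library. The limits are wide: 0 of 26 cells in iECKO 2 allows a share of up to 11.5%, and 0 of 74 cells in control 2 up to 4.05%. Median depths were 4586 to 13253 UMIs in iECKO and 9880 to 11930 UMIs in control venous cells, and 3012 to 5488 and 2626 to 5045 UMIs in microglia. Without thinning, Lcn2 was detected in 83.5%, 53.7% and 67.5% of venous cells in iECKO 1, 2 and 3, against 44.2%, 44.6% and 45.3% in control 1, 2 and 3.

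The number of vein genes detected in each venous cell was also counted. What shares the detection rates of the single genes would give alone was not computed, so co-expression beyond those rates was not tested. At 2000 UMIs, at least 3 of Lcn2, Lrg1, Ackr1, Ch25h and Ptgs2 were detected in 60.9%, 32.9% and 25.2% of venous cells of iECKO 1, 2 and 3 (140 of 230, 55 of 167 and 40 of 159 cells), against 5.77%, 11.6% and 11.7% of control 1, 2 and 3 (9 of 156, 32 of 277 and 25 of 213 cells). All 5 were detected in 15.2%, 3.59% and 1.26% of cells in iECKO 1, 2 and 3, against 0.641%, 0.722% and 0.469% in control 1, 2 and 3. None of the 5 was found in 9.57%, 19.8% and 25.2% of cells in iECKO 1, 2 and 3, against 53.2%, 36.1% and 35.7% in control 1, 2 and 3. In capillary cells at least 3 were found in 1 of 994 cells of iECKO 1 and in none of the 818 and 1420 cells of iECKO 2 and 3, against none of 2761, none of 2786 and 1 of 1562 cells in control 1, 2 and 3.

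**Figure D4:**
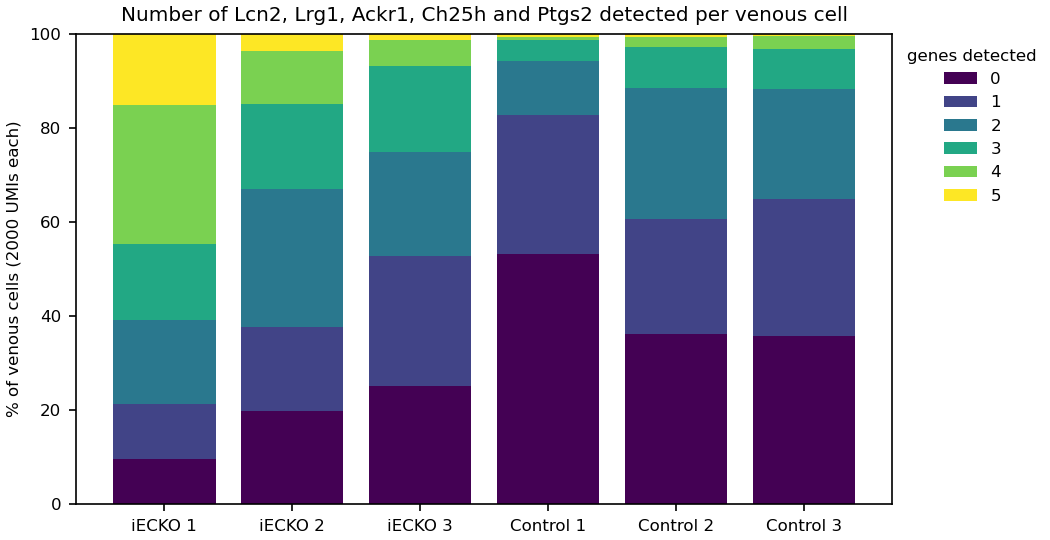
Share of venous cells (vertical, percent, each cell thinned to 2000 UMIs) in which 0 to 5 of Lcn2, Lrg1, Ackr1, Ch25h and Ptgs2 were detected, with 1 bar per library. The 3 iECKO libraries have more cells with 3 or more genes, 25.2% to 60.9%, than the control libraries, 5.77% to 11.7%.

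The series' title describes the deletion as mosaic, so cells with and without Cldn5 transcripts were compared inside each iECKO library. Among venous cells with at least 2000 UMIs, 19, 12 and 12 had no Cldn5 UMI in iECKO 1, 2 and 3, against 201, 142 and 144 cells with at least 2. Lcn2 stood at 2338, 250.1 and 279 CPM in the undetected cells of iECKO 1, 2 and 3, against 1360, 373 and 402 CPM in the detected cells. The direction thus differed between libraries, and the fitted difference was 0.02 log2 (95% interval -0.40 to 0.44, adjusted p = 0.994). The median over all genes tested was -0.17 log2. For Lrg1 the difference was -0.41 log2 (-0.82 to -0.01, adjusted p = 0.683) and for Pglyrp1 -0.49 (-0.89 to -0.08, adjusted p = 0.598). None of the 7 passed, against 0.386% of 8811 genes called; with 0 or 1 against at least 5 Cldn5 UMIs Pglyrp1 passed, at -0.58 log2 (adjusted p = 0.029). Undetected venous cells were shallower, at 3998 to 6565 UMIs per cell against 10551 to 19231 in detected cells, and a cell without a Cldn5 UMI need not be recombined.

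The same contrast in capillary cells rested on few UMIs of the vein genes, 5 or 6 of Ptgs2 per library in undetected cells. Ptgs2 stood at 10.3, 14.6 and 7.82 CPM in undetected cells of iECKO 1, 2 and 3, against 14.9, 35.7 and 18.7 CPM in detected cells, a difference of -1.05 ± 0.34 log2 (adjusted p = 0.0511). The difference of Ch25h was -1.12 ± 0.42 log2 (adjusted p = 0.121), and that of Pglyrp1 -0.06 ± 0.07 (adjusted p = 0.773). None of the 7 passed, against 4.63% of 10509 genes. Without iECKO 1 Ch25h passed, at -2.39 log2 (adjusted p = 0.0247). With 0 or 1 against at least 5 Cldn5 UMIs, Ptgs2 passed at -1.22 log2 (adjusted p = 0.00209). The F5-led cluster made up 5.30%, 10.9% and 14.0% of undetected cells in iECKO 1, 2 and 3, against 28.2%, 31.3% and 36.5% of detected cells, and its part in these differences was not tested.

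The genes around the 7 were examined in lists that had been chosen with earlier results known. Of 18 further genes of prostaglandin synthesis and breakdown, 12 were tested in venous cells and none was called, with or without the block; their median difference with the block was -0.10 log2, against 0.005 over all genes. None of the tested prostanoid receptors was called in any endothelial zone. Of 24 further acute-phase and innate secreted genes, 8 were tested in venous cells, and with the block 3 rose and none fell, against 0.61% of all genes called. Serpina3n, a secreted serine protease inhibitor, rose by 4.31 ± 0.37 log2 (adjusted p = 1.85e-05), at 36.0, 21.9 and 10.7 CPM in iECKO 1, 2 and 3, against 2.76, 0.818 and 0 CPM in control 1, 2 and 3. Cp, the copper carrier ceruloplasmin, rose by 0.66 ± 0.13 log2 (adjusted p = 0.0251). In the unpaired fit none of the 8 passed, against 0% of all genes.

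Of 23 cytokine receptors and feedback genes, all tested in capillary cells, 3 rose and 1 fell with the block, against 1.68% of all genes called there, and none was called in venous cells, against 0.61%. In arterial cells 3 of 23 rose and none fell, against 0.75%. Relb and Nfkb2, subunits of the non-canonical NF-kappaB pathway, rose in capillary cells by 0.45 ± 0.10 and 0.61 ± 0.11 log2 (adjusted p = 0.0231 and 0.00338), and in arterial cells by 1.01 ± 0.14 and 1.04 ± 0.13 log2 (adjusted p = 0.00249 and 0.00107). Tnfaip3, an inhibitor of NF-kappaB signalling, rose by 0.55 ± 0.13 log2 in capillary cells (adjusted p = 0.0293), where Socs3, a feedback inhibitor of cytokine receptors, fell by 0.39 log2 (adjusted p = 0.0484). Il1r1, the interleukin-1 receptor, rose by 0.98 ± 0.20 log2 in arterial cells (adjusted p = 0.0387). Of the 9 partners of Lrg1 and Lcn2, 6 were tested in capillary and in arterial cells, and 1 rose in each, against the same 1.68% and 0.75%: Tgfb1, a ligand whose signalling Lrg1 modifies, by 0.63 ± 0.09 log2 in capillary cells (adjusted p = 0.000188) and by 0.61 ± 0.11 log2 in arterial cells (adjusted p = 0.018). None of the 11 tested oxysterol and sterol genes and none of the 4 tested peptidoglycan-recognition genes was called in venous or capillary cells. Of the chemokines and atypical receptors that go with Ackr1, 4 were tested in each of these zones and none was called. Over all endothelial cells, where the mix of clusters enters, 1.68% of all genes were called with the block. The list genes called there also included Serpina3n, Abcg1 and Nod2, which rose, and Lifr and Nod1, which fell. Of the tested genes, 1 of 12 acute-phase, 2 of 23 cytokine, 1 of 13 oxysterol and 1 of 4 peptidoglycan-recognition genes rose. From the cytokine and the peptidoglycan-recognition list 1 gene each fell, and 1 of 6 partners of Lrg1 and Lcn2 rose. Within iECKO libraries Socs3 was lower in Cldn5-undetected than in detected venous cells (-1.25 log2, adjusted p = 0.0186). It was 1 of 22 genes of its list tested there, against 0.386% of all genes called. In capillary cells Nfkbiz, Il1r1 and Cebpd were lower in undetected cells (-1.22, -0.81 and -0.38 log2). They were 3 of 21 genes of this list tested there, with 0 higher, against 4.63% of all genes called. Il1r1 is a venous marker in the naming of zones.

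Across the 18 sums of 6 libraries and 3 zones, the 5 vein genes ran together, with Pearson r of 0.90 to 0.97 between any 2 of them. These sums share libraries and depth, and the zone difference dominates them, so r is a description. The genes most like Lrg1 among 6241 were Ifitm1 (r = 0.98), an interferon-induced membrane protein, Vwf (r = 0.97), the adhesive protein of endothelial granules, and B3gnt3 (r = 0.97). For Ackr1 they were Acsl4 (r = 0.98), Clint1 (r = 0.97) and Lbp (r = 0.97), the carrier of bacterial lipopolysaccharide. Lcn2 was most like Stt3b and Tgm2 (r = 0.96 each) and B3gnt3 (r = 0.96). Ch25h and Ptgs2 were both most like Zfp36l2 (r = 0.97 each), an RNA-decay factor, followed by B3gnt3 and Ifitm1 for Ch25h and by Vwf and Acsl4 for Ptgs2. Ptges was most like Pxn (r = 0.95), Ppard and Smad1, and Pglyrp1 like Cisd2 (r = 0.90), Sdc3 and Slc3a2. Pglyrp1 had r of -0.28 to 0.07 with the vein genes, and Ptges had r of 0.51 to 0.73 with them.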

How the data were processed

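The deposited matrices give whole UMI counts for every gene in every barcode. Per the file headers the authors used Cell Ranger 6.1.1; per the submitters' processing notes the build was mm10, and Seurat is also named. No normalization had been applied. The members, gene lists and tests were chosen with earlier results of these data known.

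Barcodes with at least 1000 UMIs, 500 genes and at most 15% mitochondrial counts were kept; scrublet called only 0 to 3 doublets per library by itself, so a top fraction by score, 0.8% for each 1000 barcodes, was dropped. Clustering used scanpy 1.11.5 (2000 variable genes, 40 components, 20 neighbours, resolution 1.0) and endothelial cells again (30 components, resolution 0.6), without Cldn5 and the 7 genes. Clusters were named from fixed markers, at least 3 of which had to be detected in 25% of cells, and barcodes with at least 3 and 50% of the markers of an unrelated class were removed as mixed. The zones are rebuilt, not the authors'. CPM are UMIs of a gene in the sum of a library's cells, scaled to 1000000. Sums of libraries with at least 20 cells were tested by the quasi-likelihood F test of edgeR 4.0.16 (robust, with filterByExpr and TMM scaling, two-sided, Benjamini-Hochberg over all genes); contrasts between zones or within iECKO libraries had the library as a block. Alternatives were DESeq2 1.42.0, RLE factors, limma 3.58.1, cell and count filters, equal cell numbers, libraries left out and the replicate block.

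Deviations from group means of same-numbered libraries correlated over genes (not independent of one another) at 0.41, 0.46 and 0.48 in endothelial cells and 0.46, 0.39 and 0.31 in venous cells, and no differently numbered pair in any zone was above 0.0823, so the numbers were taken to pair the libraries; the pairing comes from the data and not from the labels. In simulated counts the venous test recovered 61% of genes changed by 1 on the log2 scale and 94.8% of those changed by 2. It made 14 false calls among 10234 genes tested. The counts were drawn independently for each gene and library, without the resemblance of same-numbered libraries, so these shares may not hold for the real libraries. Intervals of shares and of pooled CPM are 95% exact ones and a count of 0 is read as at most 3, both for counting error only. Intervals of log2 differences are 95% ones from the SE and the t distribution of the fit. Named genes were the 7 in every comparison, up to 4 called genes of each list and comparison, the 3 most alike genes of each with a mean of at least 20 CPM, and Cldn5. Results of a list gene that this rule covers are not reported here.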

Additional observations from a re-analysis of the deposited data

How the results depend on the processing

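Counts of genes called leave out Cldn5. The unpaired counts were 0 in endothelial, 0 in venous, 3 in capillary and 2 in arterial cells; with the replicate block they were 227, 64, 205 and 84, with DESeq2 165, 20, 22 and 20, with no filter on low counts 55, 99, 22 and 26, and with the stricter cell filter 1, 4, 1 and 4. Microglia and pericytes went to 17 each with the block, against 2 each. Equal cell numbers gave 0 in capillary and 4 in arterial cells; members kept in clustering gave 0 in both; RLE factors and doublets kept each gave 0 in arterial cells; and adding the Apln-led cells, chosen after seeing the data, gave 13 in capillary cells. Leaving out 1 library gave 0 to 127 calls in endothelial, 0 to 3 in capillary, 0 to 3 in arterial, 1 to 11 in microglial and 0 to 7 in pericyte comparisons, and 0 to 50 for the difference between zones. In venous cells it gave 0 to 27, and with the replicate block, chosen after seeing the data, 36, 216 and 682 without replicate 1, 2 and 3. Within iECKO libraries the counts were 33 in venous cells (0 to 33 with a library left out, 0 at 4000 UMIs) and 486 in capillary cells (256 to 370, 882 with the wider gate, 126 at 4000 UMIs). The cause of these moves was not tested.

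Of 396 log2 differences of the 7 genes under alternatives in the 4 endothelial comparisons, 367 kept direction and side of the threshold, 25 passed it where the main value had not, and 4 reversed. These were Ptgs2 in capillary cells without iECKO 2 (-0.27), without control 1 (-0.05) and under the stricter filter (-0.11), and Ackr1 there without iECKO 3 (-0.066). With 1 library left out, Ptgs2 ran between -0.27 and 0.45 and Ackr1 between -0.066 and 0.70. The difference between zones reversed for Pglyrp1 (0.06, 0.12 and 0.11 without iECKO 2, iECKO 3 and control 1), Lrg1 (-0.16, -0.18 and -0.02 without iECKO 1, iECKO 3 and control 2) and Ch25h (-0.16 and -0.09 without iECKO 1 and control 3), with ranges of -0.29 to 0.12, -0.18 to 0.35 and -0.16 to 0.51. Within iECKO venous cells, values reversed for Ptgs2 (-0.14 and -0.07 without iECKO 2 and 3), Ackr1 (0.083 without iECKO 1, 0.13 with the wider gate), Lcn2 (-0.60 without iECKO 1, -0.085 at 4000 UMIs) and Ch25h (-0.15 and -0.08 without iECKO 1 and 2, -0.14 at 4000 UMIs), with leave-one-out ranges of -0.14 to 0.62, -0.32 to 0.083, -0.60 to 0.30 and -0.15 to 0.59. In capillary cells they did for Ptges (-0.42 at 4000 UMIs), Lcn2 (0.034 without iECKO 1; range -0.97 to 0.034) and Pglyrp1 (0.040 without iECKO 2; range -0.20 to 0.040). The wider gate is 0 or 1 against at least 5 Cldn5 UMIs. The 25 passes were 15 in venous cells, given with the results; 6 over all endothelial cells, where Ptges also passed without iECKO 3, with DESeq2 and with no filter (adjusted p = 0.0409, 0.00951 and 0.0218) and Lrg1 without iECKO 3 (adjusted p = 0.0187); 3 in capillary cells, where Lcn2 and Lrg1 passed with DESeq2 (adjusted p = 0.00366 and 0.0281) and Pglyrp1 with the block; and Pglyrp1 with the block in arterial cells. The replicate block over all 3 pairs changed the calls of Pglyrp1 (0.61 log2 in venous cells) and Ptges alone. Depth limits Ptges, with 7 to 21 venous cells detected per iECKO library at 2000 UMIs.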
